A study of Mus musculus with 6 samples.

Results

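Fatty acid uptake and oxidation in the heart was described here through 44 listed genes, which run from the capture of fatty acids at the cell surface to their breakdown in mitochondria and peroxisomes. Of these, 42 had a probe annotated to exactly 1 gene symbol, out of 19938 such genes on the array. Where a gene had several such probes, the one with the highest mean over the 6 arrays stood for it. Acsl1, which activates long-chain fatty acids, had no probe listed, and Cpt1b, the muscle form of carnitine palmitoyltransferase, was listed only on a probe shared with another symbol, so neither was measured here. Hearts came from mice aged 12 months, untreated, in 2 groups of 3: wild-type, and cenpf knock-out, called knockout below. Cenpf encodes centromere protein F, a kinetochore protein that also binds microtubules. RNA from each heart was hybridised to 1 Affymetrix array, and the labels call the hearts biological replicates. The sources used here do not give the strain, the part of Cenpf removed or the cells in which it was removed.

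The heart draws most of its energy from fatty acids. These are freed from circulating triglyceride, taken up, coupled to coenzyme A, carried into mitochondria as carnitine esters and shortened by repeated rounds of dehydrogenation, hydration, a second dehydrogenation and thiolysis. Peroxisomes shorten very long chains. The nuclear receptors PPAR-alpha and PPAR-delta, each paired with a retinoid X receptor, are known to drive transcription of many of these genes in heart muscle.

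The targeted gene, Cenpf, read 8.75, 8.54 and 8.04 in wild-type and 6.35, 6.10 and 6.68 in knockout hearts. Every knockout heart lay below every wild-type heart, and the mean differed by -2.07 (limma, SE 0.21, adjusted p = 0.0286). That call did not hold without wild-type replicate 1 or 2 or any 1 knockout heart, with adjusted p from 0.0689 to 0.198. Markers of ventricular cardiomyocytes were all measured, 10 of 10, with list means between 13.37 and 13.53 on the log2 scale in the 6 hearts, and none below the background level of 6.35, which was set from olfactory and vomeronasal receptor probes. No member of the fatty acid set had a mean below that level either. Wild-type replicate 3 stood apart from the other wild-type hearts in these genes: it was the highest wild-type heart for 35 of the 42 members, against 34.2% of all 21789 probes tested. Knockout replicate 1 was the lowest knockout heart for 29 members, against 36.9% of all probes. Results are therefore given with and without these hearts where that changed them. In whole-heart RNA, a change in the number of cells of a type and a change in RNA per cell cannot be told apart.

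Most fatty acid genes had a slightly higher mean in knockout hearts, but no member passed the test. Of 42 members 36 were higher and 6 lower, and the median difference was 0.15 on the log2 scale. Over all probes tested 47.9% were higher, with a median difference of -0.0082, and among probes above the background level 51.2% were higher. At an adjusted p under 0.05 (limma, Benjamini-Hochberg over 21789 probes) 0 members were called, where 0.0275% of all probes were. At an unadjusted p under 0.05 there were 8 members, all higher, against 4.66% of all probes on that side, and 0 lower, against 5.24%. The 95% intervals lay within a 2-fold change either way for 41 members, the exception being Acsl6.

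Groups that did not overlap, meaning that every knockout value lay on one side of every wild-type value, were found for 11 members, against 14.8% of all probes. Of these, 9 were higher in knockout hearts, against 7.33% of all probes, and 2 lower, against 7.47%. The higher ones were Cd36, Cpt1a, Cpt2, Slc25a20, Eci1, Decr1, Etfa, Acot2 and Rxra. Echs1 and Eci2 were the lower ones.

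**Figure D1:**
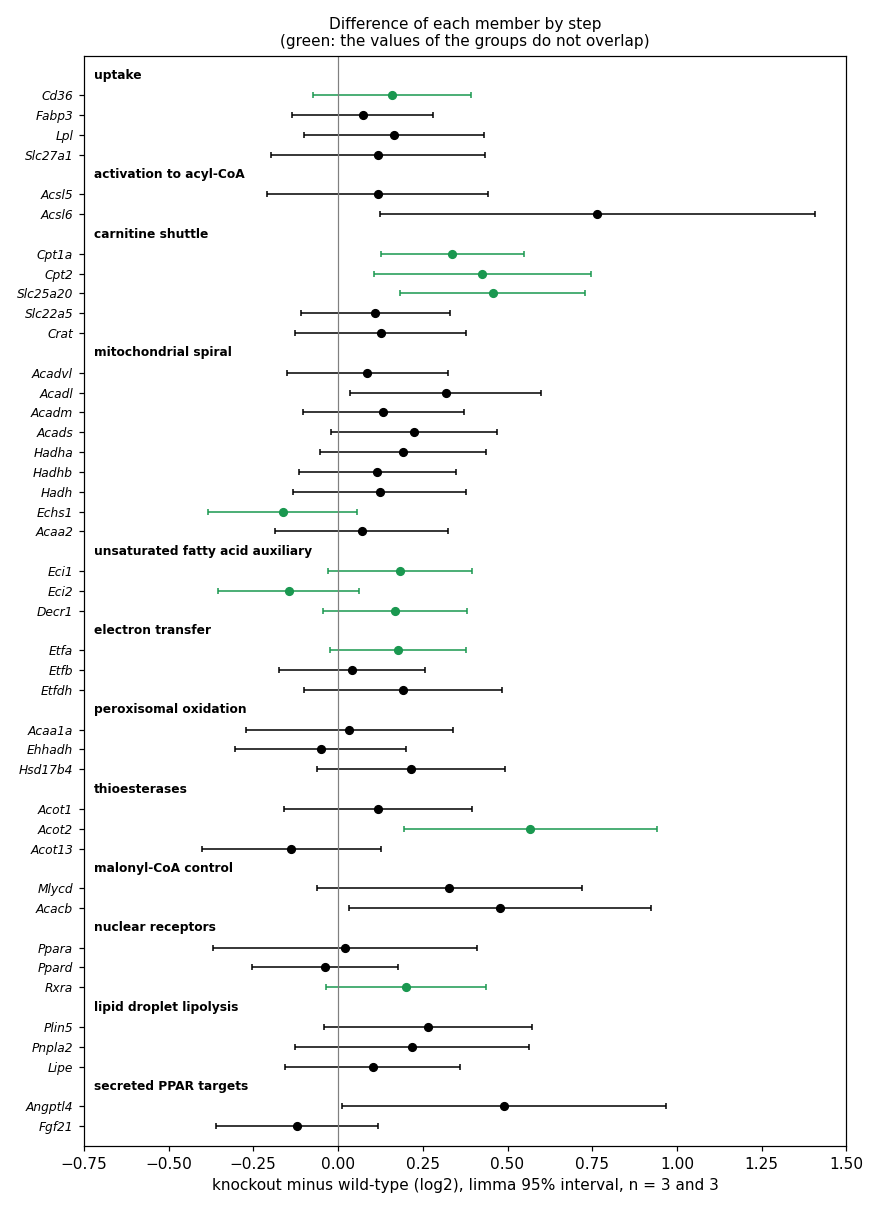
Difference of each of the 42 members between knockout and wild-type hearts (log2, horizontal axis) with its 95% interval from limma, grouped by step, n = 3 hearts a group. Green marks the 11 members whose groups did not overlap. The carnitine shuttle holds 3 of them on the higher side, and the intervals of most other members span 0. Green does not stand for an interval off 0. The intervals of Cd36, Eci1, Decr1, Etfa, Rxra, Echs1 and Eci2 span 0, and those of Acsl6, Acadl, Acacb and Angptl4, which are not green, do not.

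The members with the lowest p lie in the shuttle that carries fatty acids into the mitochondrion and at the thioesterase that acts behind it. The 250 bases before the annotated start of the 4 genes concerned are shown, since known targets of PPAR receptors often carry repeats of the letters AGGTCA near their starts. Capitals mark AGGTCA on either strand. They come from RefSeq, build GRCm38.p6: Slc25a20 at chr9:108661886-108662135 on the plus strand, Cpt1a at chr19:3323051-3323300 on the plus strand, Cpt2 at chr4:107923590-107923839 on the minus strand and Acot2 at chr12:83987611-83987860 on the plus strand.
Slc25a20: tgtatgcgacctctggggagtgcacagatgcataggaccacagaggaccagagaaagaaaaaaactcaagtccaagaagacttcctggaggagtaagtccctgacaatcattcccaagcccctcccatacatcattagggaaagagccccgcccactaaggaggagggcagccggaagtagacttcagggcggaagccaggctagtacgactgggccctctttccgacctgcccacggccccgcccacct
Cpt1a: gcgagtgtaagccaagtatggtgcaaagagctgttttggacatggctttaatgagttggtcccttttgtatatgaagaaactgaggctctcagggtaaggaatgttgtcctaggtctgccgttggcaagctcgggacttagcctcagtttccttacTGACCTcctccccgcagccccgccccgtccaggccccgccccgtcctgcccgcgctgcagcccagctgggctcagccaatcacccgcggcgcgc
Cpt2: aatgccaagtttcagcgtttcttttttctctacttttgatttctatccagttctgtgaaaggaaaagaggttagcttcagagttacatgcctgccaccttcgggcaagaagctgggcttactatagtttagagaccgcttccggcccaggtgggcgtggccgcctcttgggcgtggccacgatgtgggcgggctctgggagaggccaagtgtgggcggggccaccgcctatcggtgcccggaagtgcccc
Acot2: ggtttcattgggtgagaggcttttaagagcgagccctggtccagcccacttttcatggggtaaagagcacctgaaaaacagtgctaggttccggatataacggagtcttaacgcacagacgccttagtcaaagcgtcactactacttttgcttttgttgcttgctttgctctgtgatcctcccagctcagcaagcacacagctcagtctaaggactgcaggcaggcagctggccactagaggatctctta

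The Cpt1a window held the letters once, on the minus strand, and the other 3 windows did not hold them. Promoter windows were found for 36 of the 44 listed genes, 44 windows in all, since some genes have several starts. Of these windows 8 held AGGTCA on either strand, or 18.2%, against 14.0% of all 32851 windows of the same length. The element that PPAR and retinoid X receptors bind as a pair, a direct repeat of AGGTCA with 1 base between the copies, was in 0 member windows and in 0.0335% of all windows. The letters TCAAGGTCA, bound by estrogen-related receptors and also containing AGGTCA, were in 1 member window, that of Acsl6, and in 0.387% of all windows. A match or its absence is a description of the letters only, and elements further from the start were not looked for. Only exact copies of the letters were counted. The exact repeat was in 11 of all 32851 windows, so 44 windows would rarely hold it, and its absence decides nothing about binding.

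At the uptake step all 4 members had higher means in knockout hearts, with differences from 0.07 to 0.16. Cd36, the main fatty acid translocase of the muscle cell membrane, read 13.02, 13.04 and 13.25 in wild-type replicates 1 to 3 and 13.28, 13.25 and 13.25 in knockout replicates 1 to 3. The groups did not overlap, but wild-type replicate 3 was the same to 2 decimals as the lowest knockout heart. Cd36 averaged 13.10 ± 0.13 (SD, n = 3) without and 13.26 ± 0.01 (SD, n = 3) with the knockout, a difference of 0.16 (SE 0.10, adjusted p = 0.621). Lpl, the lipase that frees fatty acids from circulating triglyceride, differed by 0.16, and the transporter Slc27a1 by 0.12. Fabp3, the fatty acid-binding protein of heart cytoplasm, differed by 0.07 on its brighter probe and by 0.06 on the other. Knockout replicate 1 read below wild-type replicates 1, 2 and 3 for Slc27a1, at 10.49 against 10.65, 10.59 and 10.75.

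Activation to acyl-CoA was covered by Acsl5 and Acsl6, both acyl-CoA synthetases. Acsl6 read 7.51, 7.33 and 8.52 in wild-type replicates 1 to 3 and 8.38, 8.71 and 8.56 in knockout replicates 1 to 3. Wild-type replicate 3 thus lay with the knockout hearts, above knockout replicate 1, while the other wild-type hearts lay about 1 log2 unit lower. The difference was 0.76 with a 95% interval of 0.12 to 1.41 (SE 0.28, adjusted p = 0.462). It was 1.13 without wild-type replicate 3 (adjusted p = 0.0176) and 0.54, its lowest value with 1 heart left out, without wild-type replicate 2 (adjusted p = 0.839). Acsl5 differed by 0.12, and this turned to -0.036 without knockout replicate 1, which read 8.90 where the other 5 hearts lay between 8.40 and 8.58.

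In the carnitine shuttle all 5 measured members had higher means in knockout hearts, with a median difference of 0.34, and 0 passed the test. Slc25a20, the carrier that exchanges acylcarnitine for carnitine across the inner membrane, read 11.13, 11.06 and 11.42 in wild-type and 11.57, 11.68 and 11.72 in knockout hearts. Every knockout heart lay above every wild-type heart. Slc25a20 averaged 11.20 ± 0.19 and 11.66 ± 0.08 (SD, n = 3), a difference of 0.46, or 1.37-fold (SE 0.12, adjusted p = 0.377).

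Cpt1a, the carnitine palmitoyltransferase form that predominates in liver and is also present in heart, read 9.73, 9.64 and 9.75 in wild-type and 10.01, 10.04 and 10.09 in knockout hearts. Here wild-type replicate 3 lay with its own group, and the spread within each group was small. The means were 9.71 ± 0.06 and 10.04 ± 0.04 (SD, n = 3), a difference of 0.34, or 1.26-fold (SE 0.09, adjusted p = 0.390). It ranged from 0.30 to 0.36 when any 1 heart was left out.

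Cpt2, which rebuilds acyl-CoA inside the mitochondrion, read 11.16, 11.06 and 11.50 in wild-type and 11.50, 11.74 and 11.75 in knockout hearts. Wild-type replicate 3 and knockout replicate 1 were the same to 2 decimals. The difference was 0.43, or 1.34-fold (SE 0.14, adjusted p = 0.443), 0.56 without wild-type replicate 3 (adjusted p = 0.0927), and 0.34, its lowest value with 1 heart left out, without wild-type replicate 2 (adjusted p = 0.814). Slc22a5, the carnitine importer of the cell membrane, and Crat, carnitine acetyltransferase, differed by 0.11 and 0.13 with overlapping groups.

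**Figure D2:**
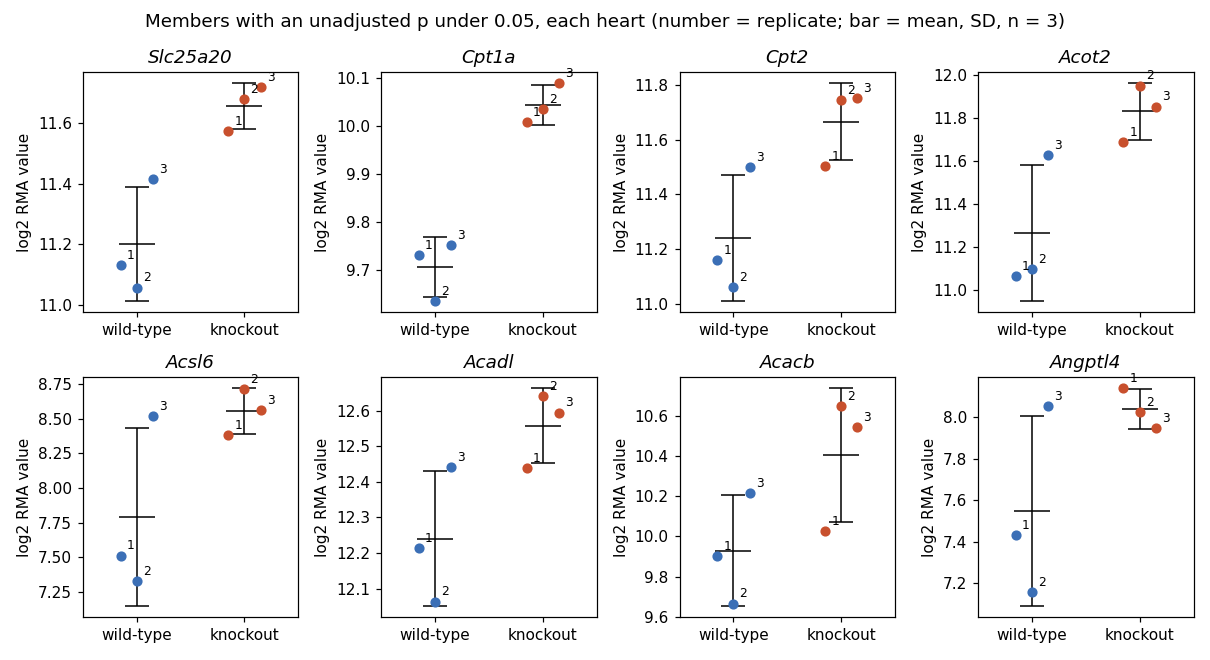
Log2 RMA values (vertical axes, each panel with its own range) of the 8 members with an unadjusted p under 0.05, in each of 3 wild-type (blue) and 3 knockout (orange) hearts. Numbers are replicates, and bars give the mean and SD. Wild-type replicate 3 is the highest wild-type heart in every panel, and in the Cpt1a panel it stays close to its group, at 9.75 against 9.73 and 9.64.

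Of the 9 enzymes of the mitochondrial spiral, 8 had higher means and 1 a lower mean in knockout hearts, with a median difference of 0.12. Acadl, the long-chain acyl-CoA dehydrogenase, read 12.22, 12.06 and 12.44 in wild-type and 12.44, 12.64 and 12.59 in knockout hearts. Wild-type replicate 3 met knockout replicate 1. The difference was 0.32 (SE 0.12, adjusted p = 0.474). The dehydrogenases for other chain lengths differed by 0.09 for Acadvl (very long), 0.13 for Acadm (medium) and 0.22 for Acads (short). Hadha and Hadhb, the subunits of the mitochondrial trifunctional protein, differed by 0.19 and 0.12, and the second Hadhb probe also by 0.12. Hadh, the dehydrogenase for shorter hydroxyacyl chains, differed by 0.12, and Acaa2, the thiolase that closes each round, by 0.07.

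Echs1, the short-chain enoyl-CoA hydratase, was the exception in the spiral. It read 11.90, 11.84 and 11.86 in wild-type and 11.59, 11.76 and 11.76 in knockout hearts, so the groups did not overlap. The difference was -0.16 (SE 0.10, adjusted p = 0.594). Its direction was the same under every alternative run, and knockout replicate 1 was the lowest heart.

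The auxiliary enzymes that prepare unsaturated chains did not move together. Eci1, an enoyl-CoA isomerase of mitochondria, read 11.30, 11.33 and 11.41 in wild-type and 11.55, 11.47 and 11.58 in knockout hearts, a difference of 0.18. Decr1, the dienoyl-CoA reductase, read 11.76, 11.65 and 11.78 against 11.86, 11.90 and 11.94, a difference of 0.17. Eci2, an isomerase found in peroxisomes and mitochondria, went the other way, with 10.82, 10.84 and 10.74 in wild-type and 10.67, 10.60 and 10.68 in knockout hearts, a difference of -0.15. Standard errors were 0.09 for each of the 3, their groups did not overlap, and their adjusted p lay between 0.546 and 0.614.

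Electrons from the acyl-CoA dehydrogenases pass to the electron transfer flavoprotein, made of Etfa and Etfb, and on through its dehydrogenase Etfdh. Etfa read 11.78, 11.79 and 11.80 in wild-type and 11.96, 12.00 and 11.95 in knockout hearts. This was a close grouping on both sides, with SDs of 0.01 and 0.03, and a difference of 0.18 (SE 0.09, adjusted p = 0.540). Etfb, the other subunit, differed by 0.04, with a 95% interval of -0.17 to 0.26. Etfdh differed by 0.19 with overlapping groups.

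Peroxisomal oxidation gave no common direction. Hsd17b4, the multifunctional enzyme for straight and branched chains, read 10.22, 9.96 and 10.32 in wild-type and 10.27, 10.45 and 10.42 in knockout hearts. Wild-type replicate 3 lay above knockout replicate 1, and the difference was 0.22 (SE 0.12, adjusted p = 0.576). Ehhadh, the other bifunctional enzyme, differed by -0.05, with a 95% interval of -0.30 to 0.20, and this turned to 0.027 without knockout replicate 1. The thiolase Acaa1a differed by 0.03, with a 95% interval of -0.27 to 0.34, and its direction also turned under 3 alternatives. The median difference of the 3, which was the value of Acaa1a alone, was 0.03, against 0.34 in the carnitine shuttle and 0.12 in the mitochondrial spiral. In the longer lists of other pathway genes, described below, the median was 0.10 for 20 peroxisomal and 0.084 for 17 mitochondrial oxidation genes. With 1 heart left out the median of the 3 peroxisomal members ranged from -0.071 without wild-type replicate 2 to 0.10 without wild-type replicate 3. The spiral median ranged from 0.075 to 0.20 without the same hearts. The shuttle median, which was the value of Cpt1a alone, stayed between 0.30 and 0.36. Other shuttle members ranged more widely, Cpt2 from 0.34 to 0.56, Slc25a20 from 0.38 to 0.56, Crat from 0.076 to 0.22 and Slc22a5 from 0.084 to 0.16. Whether the steps differ from each other was not tested.

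Among the thioesterases, which release free fatty acid from acyl-CoA, Acot2 of the mitochondrial matrix had the lowest p. It read 11.07, 11.10 and 11.63 in wild-type and 11.69, 11.95 and 11.86 in knockout hearts. Wild-type replicate 3 lay just below knockout replicate 1, with the other wild-type hearts well below. The difference was 0.57, or 1.48-fold (SE 0.16, adjusted p = 0.391). It was 0.75 without wild-type replicate 3 (adjusted p = 0.0388) and 0.47 without wild-type replicate 1 (adjusted p = 0.683), the ends of its range with 1 heart left out. Acot1, a cytosolic paralog of nearly the same sequence, differed by 0.12, and how far the probes of these paralogs read each other's transcripts was not tested. Acot13 differed by -0.14, with knockout replicate 1 at 12.07 inside the wild-type range.

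Malonyl-CoA, which blocks carnitine palmitoyltransferase 1, is made at the mitochondrial surface by Acacb and removed by Mlycd, and both had higher means in knockout hearts. Acacb read 9.90, 9.67 and 10.22 in wild-type and 10.03, 10.65 and 10.54 in knockout hearts. The groups overlapped because wild-type replicate 3 lay above knockout replicate 1, and the difference was 0.48 (SE 0.19, adjusted p = 0.486). Mlycd differed by 0.33, with values from 0.19 without wild-type replicate 2 (adjusted p = 0.878) to 0.52 without wild-type replicate 3 (adjusted p = 0.0969).

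None of the 3 receptors that drive the pathway passed the test. Ppara read 9.91, 9.92 and 10.03 in wild-type and 9.57, 10.24 and 10.12 in knockout hearts, a difference of 0.02 with a 95% interval of -0.37 to 0.41. Knockout replicate 1 was the lowest of all 6 hearts and the other knockout hearts were the highest, so the difference was -0.11 with knockout replicate 2 left out and 0.22 with knockout replicate 1 left out. Ppard differed by -0.04, with a 95% interval of -0.25 to 0.18. Rxra, a retinoid X receptor, read 8.85, 8.91 and 8.98 against 9.01, 9.24 and 9.09, a difference of 0.20 (SE 0.10, adjusted p = 0.552). No wild-type heart reached a knockout heart for Rxra.

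Lipid droplet genes all had higher means with overlapping groups. Plin5, a droplet coat protein that tethers droplets to mitochondria, read 8.76, 8.93 and 9.04 in wild-type and 8.95, 9.24 and 9.35 in knockout hearts, a difference of 0.27 (SE 0.13, adjusted p = 0.546). The lipases Pnpla2, which takes the first fatty acid off triglyceride, and Lipe, which acts next, differed by 0.22 and 0.10. Of the secreted PPAR targets, Angptl4, an inhibitor of lipoprotein lipase, read 7.43, 7.16 and 8.06 in wild-type and 8.14, 8.02 and 7.95 in knockout hearts. Wild-type replicate 3 lay inside the knockout range. The difference was 0.49 (SE 0.21, adjusted p = 0.50). Without wild-type replicate 3 it was 0.74 (adjusted p = 0.0471), and without wild-type replicate 2 it was 0.29 (adjusted p = 0.861). Fgf21, a hormone of fasting, differed by -0.12 and read 6.83 or lower in all hearts, little above the background level.

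**Figure D3:**
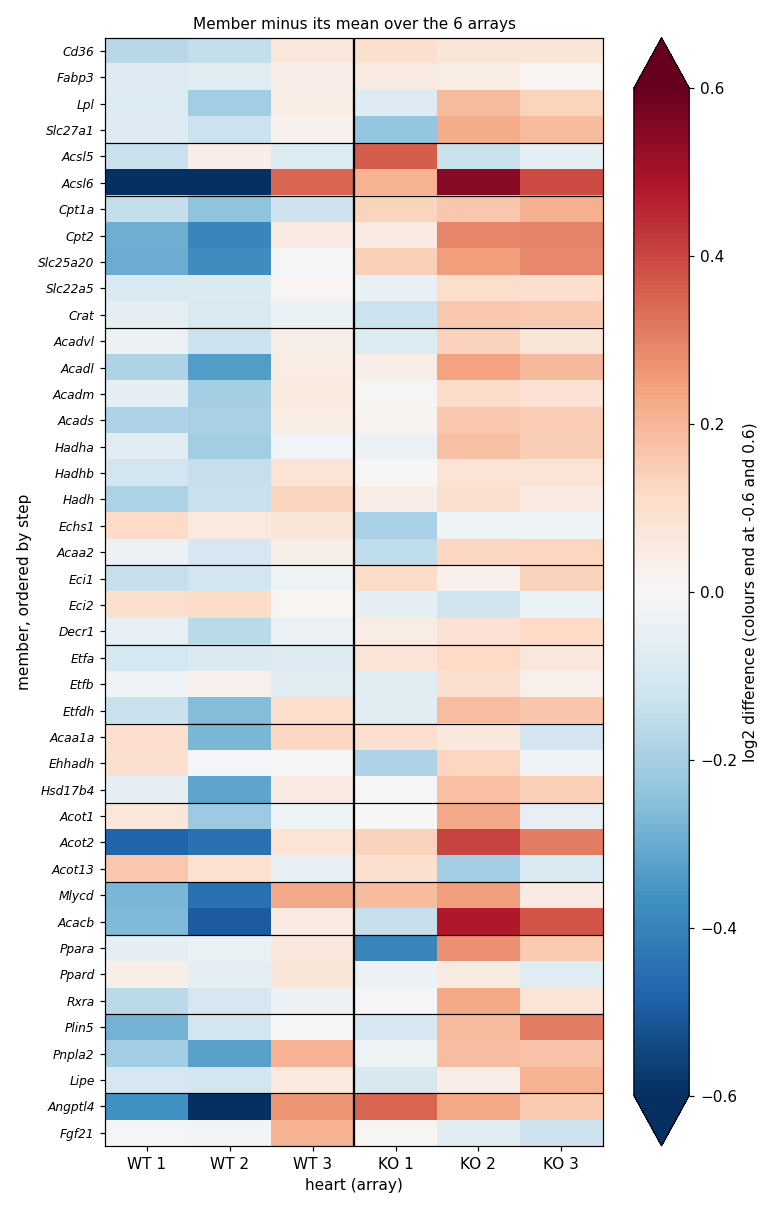
Each of the 42 members (rows, ordered by step) in each heart (columns), as its log2 value minus its own mean over the 6 arrays. Wild-type replicates 1 and 2 are mostly blue (low) and knockout replicates 2 and 3 mostly red (high). Wild-type replicate 3 and knockout replicate 1 lie between, with median deviations of 0.04 and 0.0037.

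Over the set, median deviations from the members' own means were -0.096, -0.14 and 0.04 in wild-type replicates 1 to 3 and 0.0037, 0.15 and 0.12 in knockout replicates 1 to 3. Wild-type replicate 3 thus stood above knockout replicate 1. Wild-type replicate 3 lay above the lowest knockout heart for 32 of the 42 members, a share like the 75.8% over all probes, and above all knockout hearts for 7, against 23.5% of all probes. Wild-type replicate 1 lay above the lowest knockout heart for 14 members, against 73.9% of all probes, and wild-type replicate 2 for 12, against 71.1%.

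Wild-type replicate 3 was singled out as the highest wild-type heart for most of these members, so leaving it out had to lower their wild-type means, and the values without it are a description. The median difference was then 0.19, and the size of the difference was larger for 38 of 42 members, against 68.1% of all probes. The 3 members called were Acsl6, Acot2 and Angptl4, all higher, where 1.34% of all probes were called and 0.776% on the higher side. Groups then did not overlap for 27 members on the higher side, against 15.8% of probes, and for 2 on the lower side, against 18.3%. Leaving out knockout replicate 1, singled out in the same way as the lowest knockout heart, gave 27 members on the higher side, against 15.7% of probes, and 4 on the lower side, against 15.5%, or 31.2% of probes either way. The median difference was then 0.19, with 0 members called. Without wild-type replicate 1 or 2, or knockout replicate 2 or 3, 0 members were called, against 0.00459%, 0.00459%, 0.0138% and 0.00918% of probes. In that order 11, 12, 12 and 12 members did not overlap, against 22.9%, 21.6%, 23.2% and 22.3% of probes.

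**Figure D4:**
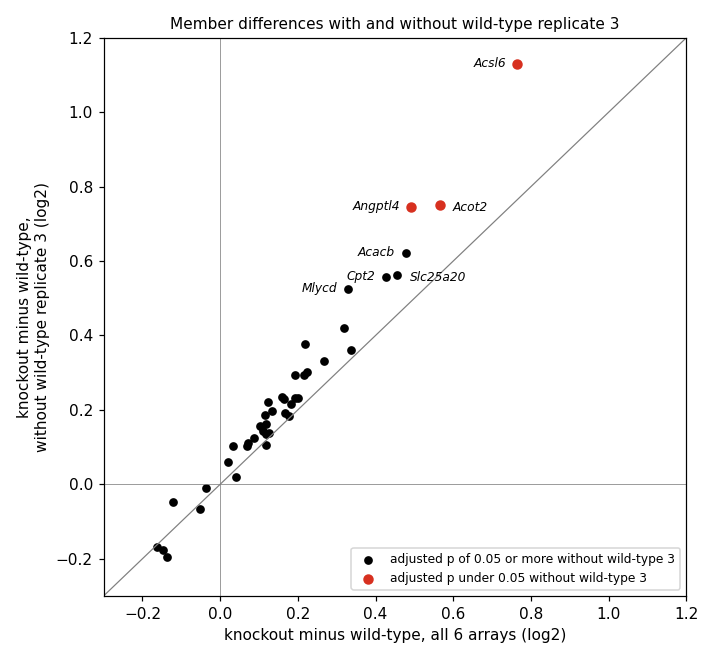
Difference of each member with all 6 arrays (horizontal axis, log2) against the difference without wild-type replicate 3 (vertical axis, log2), with the line of equal values. Most points lie above the line, and the 3 red points (Acsl6, Acot2 and Angptl4) are those with an adjusted p under 0.05 when that heart was left out.

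Other genes of the pathway were listed by their known roles. Of 94 measured out of 102 listed, 52 were higher and 42 lower, with a median difference of 0.02, and 0 passed the test (11 higher and 7 lower at an unadjusted p under 0.05, against 4.66% and 5.24% of all probes). Other uptake and activation genes were higher for 5 of 13, among them the lipoprotein receptor Vldlr with 0.62, while Slc27a2, below the background level, differed by -0.40. Other mitochondrial oxidation genes were higher for 11 of 17. These included Ucp3, a mitochondrial carrier, with 7.10, 7.11 and 8.15 in wild-type and 8.89, 8.92 and 8.88 in knockout hearts. They also included Pdk4, a kinase that shuts off glucose oxidation, with 10.06, 10.15 and 11.28 against 12.22, 11.77 and 11.87. Their adjusted p were 0.213 and 0.297, and in both genes wild-type replicate 3 lay between the other wild-type hearts and the knockout hearts.

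Other peroxisomal genes were higher for 13 of 20, led by catalase, Cat, with 0.43 (adjusted p = 0.424) and Pex11a, which drives peroxisome division, with 0.42 (adjusted p = 0.50). Cat did not overlap between groups, at 11.50, 11.53 and 11.95 in wild-type and 12.04, 12.13 and 12.11 in knockout hearts. It was 1 of 3 such genes among these 20, against 14.8% of all probes. Over the 94 other pathway genes 14 did not overlap, 7 higher and 7 lower. Coregulators and other receptors were higher for 8 of 14, with differences from -0.09 to 0.31. The one with the lowest p was the estrogen-related receptor gene Esrrb, with 0.31 (adjusted p = 0.548), followed by the coactivator Ncoa2 with 0.16 (adjusted p = 0.655).

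Markers of other cell types were read in the same hearts, and 0 of them passed the test. Adipocyte markers, 8 measured of 10, were lower for 7, with list means of 8.49, 8.10 and 7.73 in wild-type and 7.76, 7.49 and 7.46 in knockout hearts. The list shares 3 of its 10 genes with the fatty acid lists. Adiponectin, Adipoq, read 7.21 and 6.72 in wild-type replicates 1 and 2 and below the background level in the other 4 hearts, and leptin, Lep, was below it in every heart. Car3, abundant in fat, read 10.92, 9.66 and 8.42 against 7.72, 7.46 and 6.95. Fabp4, the brightest marker of the list, differed by -0.035, and Thrsp, the 1 marker with a higher mean, by 0.29. The median difference of the list was -0.27, against -2.29 for Car3.

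Erythrocyte markers, of which only 2 of 6 were measured, had list means of 8.31, 8.59 and 8.92 in wild-type and 9.46, 9.24 and 9.26 in knockout hearts. Those 2, Alas2 and Slc4a1, differed by 0.88 and 0.54, and their groups did not overlap, against 7.33% of all probes on the higher side. For the other lists, each range below is that of the list means of the hearts in a group, wild-type first, and single markers spread more widely. Macrophage and monocyte list means ranged from 9.42 to 9.84 and from 9.26 to 10.04 in the 2 groups, with knockout replicate 1 highest. Fibroblast list means ranged from 9.88 to 10.38 and from 9.76 to 10.45, with knockout replicate 1 again highest. Ventricular cardiomyocyte markers differed by a median of 0.04, with 7 of 10 higher. Endothelial list means ranged from 10.40 to 10.50 and from 10.50 to 10.61. Those of brown adipocyte markers ranged from 7.57 to 7.72 and from 7.51 to 7.72, with Ucp1 below the background level in its mean. Smooth muscle and pericyte list means ranged from 9.02 to 9.56 and from 9.04 to 9.19. Of these 6 markers 3 were higher and 3 lower, and Acta2 alone differed by -1.28. Lymphocyte list means ranged from 6.36 to 6.51 and from 6.34 to 6.54, with 2 of the 5 measured markers below the background level. Cd14 differed by -0.79 among macrophage markers, of which 3 were higher and 4 lower. Kdr differed by 0.43 among endothelial markers, of which 5 were higher and 2 lower. Skeletal muscle list means ranged from 8.08 to 8.23 and from 8.07 to 8.27, and atrial list means from 7.90 to 8.32 and from 8.33 to 8.62. Of the 5 atrial markers 4 were higher and 1 lower, with a median difference of 0.22, and 2 were below the background level. The part of any of these in the differences of the fatty acid genes was not tested.

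**Figure D5:**
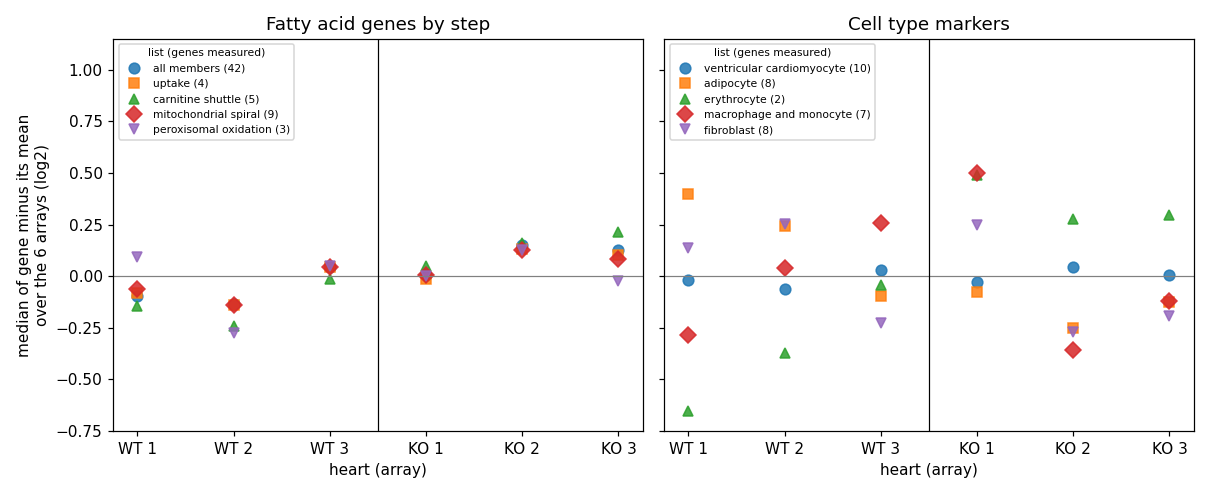
Median, over the genes of a list, of each gene's log2 value minus its mean over the 6 arrays, by heart. Left, fatty acid genes in all and for 4 steps. Right, markers of 5 cell types. Wild-type replicate 3 (0.04) stands above knockout replicate 1 (0.0037) for all members, and adipocyte markers are highest in wild-type replicates 1 (0.40) and 2 (0.24).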

How the data were processed

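Total RNA from each heart was extracted with Trizol and an RNeasy kit and biotin-labelled, per the labels' protocols. The authors deposited log2 values made with RMA (background correction, normalization between arrays, probe summary) and Partek 6.6, per the submitters' processing notes. The sources used here state neither the settings nor a genome build. Array medians lay between 6.92 and 6.97 over 35556 probes, so no further normalization, filter or pseudocount was applied. Probes were named from the platform annotation: 21789 had 1 gene symbol, 1621 several, and 12146 were unnamed here. The RefSeq gene table matched 21698 of the former, and 0 symbols needed updating. The background level, 6.35, was the 95th percentile of the means of 1205 olfactory and vomeronasal receptor probes. Arrays have no read depth, so precision is limited by their number.

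The group difference was fitted with limma 3.58.1, under R 4.3.3 (lmFit, eBayes, two-sided), on all 21789 probes with Benjamini-Hochberg adjustment. The fit was tested on simulated data. Differences are knockout minus wild-type on the log2 scale. Values by heart are given for members with an unadjusted p under 0.05 or groups that did not overlap, and for at least 1 member a step. Of the other pathway genes, the 2 with the lowest p in each list are named where values are given. Adipoq, Lep and Car3 are named among the adipocyte markers. Fabp4, Thrsp and single markers of other cell types were named after their values were seen. The members and lists were chosen with earlier results of these data known, so counts over them are descriptions. The labels do not say that shared replicate numbers pair the hearts, and the fit did not pair them. Correlations of deviations between same-numbered hearts were -0.11, -0.16 and -0.0031, and between differently numbered hearts from -0.020 to 0.14. Deviations within a group sum to 0, so these correlations depend on each other and cannot decide whether hearts were paired. Figures were drawn with matplotlib 3.10.9.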

Additional observations from a re-analysis of the deposited data

How the results depend on the processing

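The count of members with a higher mean stayed between 35 and 36 of 42 under all alternatives run, and their median difference between 0.11 and 0.19. Under the 3 other normalizations, 2 filters on dim probes, all probes tested, averaged probes per gene, array weights, a robust variance trend and the replicate block, 0 members were called. Of 420 member values under these settings, 419 kept their direction and side of the threshold, and Acaa1a turned to -0.0033 with array weights. With the replicate number as a block the count of called members was 0, as it was without the block, and Cenpf differed by -2.07 (adjusted p = 0.0423). Calls over all probes, 6 in the reported fit, were 11 with that block, 9 with array medians subtracted or probes averaged per gene, 22 with the variance trend, 33 with array weights and 1 with all probes tested. Leaving out 1 heart gave 1 to 293 such calls, the latter without wild-type replicate 3.

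Leaving out 1 heart gave between 0 and 3 called members, against 0.00459% to 1.34% of all probes. Between 11 and 31 members then had groups that did not overlap, against 21.6% to 34.2% of all probes. Directions turned for 4 members, whose left-out values ranged from -0.096 to 0.10 for Acaa1a, from -0.036 to 0.21 for Acsl5, from -0.13 to 0.027 for Ehhadh and from -0.11 to 0.22 for Ppara. Cenpf ranged from -2.27 to -1.92, and with all 35556 probes tested it differed by -2.07 with an adjusted p of 0.281. These settings bring a smaller number of arrays or a larger number of probes, and what moved the adjusted p of Cenpf was not tested. Without wild-type replicate 3 Cenpf was still called (limma, adjusted p = 0.00508). With 3 hearts a group, the spread between wild-type hearts was as large as many differences. A change well under 2-fold in a single member was often not detectable, and differences above 2-fold also went uncalled. Outside the members, Ucp3 at 2.72-fold, Pdk4 at 2.74-fold and Car3, with a difference of -2.29, were not called (limma, adjusted p = 0.213, 0.297 and 0.368).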

Other observations

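Genes of lipid storage and of fatty acid synthesis were also measured. Of 15 storage and release genes 9 were higher and 6 lower in knockout hearts, and 0 passed the test (limma, 3 higher and 1 lower at an unadjusted p under 0.05, against 4.66% and 5.24% of all probes). Plin1, the coat protein of fat cell droplets, read 7.25, 7.01 and 7.09 in wild-type and 6.87, 6.70 and 6.80 in knockout hearts, a difference of -0.33 (adjusted p = 0.439). Mgll, which cuts the last fatty acid from glycerol, read 9.72, 9.85 and 10.36 against 10.43, 10.46 and 10.45, a difference of 0.47 (adjusted p = 0.455).

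Of 15 genes of synthesis and its control 6 were higher and 9 lower, and 0 passed the test (2 higher and 2 lower at an unadjusted p under 0.05, against the same shares). The desaturase genes did not share a direction, and of the genes named here Scd2 and Prkab2 were chosen after their values were seen. Scd1 read 10.77, 10.73 and 10.13 in wild-type and 10.18, 9.71 and 9.93 in knockout hearts, and Scd2 read 11.02, 10.93 and 9.53 against 9.78, 9.57 and 9.61. In both, wild-type replicate 3 lay with the knockout hearts, on the low side. Scd4 read 6.44, 5.98 and 6.44 against 7.16, 6.90 and 6.77, a difference of 0.66 (adjusted p = 0.368) near the background level. Prkab2, a subunit of the AMP-activated kinase, read 8.91, 8.96 and 9.75 against 9.89, 9.77 and 9.85, a difference of 0.63 (adjusted p = 0.454).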
